A study of Mus musculus with 6 samples.

Results

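The extracellular matrix proteases of the Mmp and Adamts families and their inhibitors of the Timp family were described in male mouse mesonephroi with and without Wnt9b. The members were the genes whose symbol is Mmp, Adamts or Timp followed by a number, 33 of the 20033 genes in the deposited table: 11 Mmp, 19 Adamts and 3 Timp genes. A further 12 Mmp symbols and Timp4, which RefSeq lists in these families, were not analysed here. Those 12 include every collagenase (Mmp1a, Mmp1b, Mmp8, Mmp13) and the stromelysin and matrilysin group (Mmp3, Mmp7, Mmp10).

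RNA was sequenced from 6 mesonephroi taken at E12.5 (embryonic day), 3 of control and 3 of Wnt9b knockout embryos, each library from 1 embryo by its title. The allele was deleted in the whole animal, so the values do not single out any cell type. The knockouts are Wnt9b-/-; the controls are Wnt9b+/+ in the design text and heterozygous in the genotype field, so they may carry 1 null allele. The mesonephros, the transient embryonic kidney, contains the Wolffian duct, and Wnt9b encodes a Wnt ligand secreted by that duct.

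Matrix metalloproteinases (Mmp) are zinc enzymes, secreted or anchored in the membrane, that are made as inactive precursors and cut collagens and other matrix proteins once activated. Adamts proteases carry thrombospondin repeats and cut proteoglycans such as versican, trim procollagens or bind fibrillin microfibrils. The Timp proteins bind the active site of these enzymes. Matrix turnover of this kind accompanies the growth and folding of epithelial ducts and the tissue around them.

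Levels are in TPM, a transcript's share of its library corrected for gene length, so genes can be compared with each other. Wnt9b was at 24.9, 26.4 and 34.0 TPM among controls and at 23.4, 19.2 and 19.0 TPM among knockouts (log2 difference of -0.44 with SE 0.14; adjusted p = 0.266 by limma). For Wnt9b the authors' deposited table, from DESeq2, gives -0.45 and an adjusted p of 0.0263. The groups did not overlap, but the deleted part of the gene is not given, so this checks the labels only weakly. Tissue markers were present: all 7 duct epithelium genes and all 5 mesenchyme genes looked for passed the filter. Of the mesenchyme genes, which summed to 1308 to 1468 TPM among controls and 1383 to 1496 TPM among knockouts, Tcf21 was higher and Pdgfrb lower by limma. Marker sums of other cell types differed between the groups: gonadal soma genes (10 genes) summed to 325 to 334 TPM among controls and 387 to 479 TPM among knockouts, endothelial genes (6 genes) to 360.0 to 384 and 302 to 335 TPM, and genes of muscle and cartilage (5 genes) to 8.92 to 12.0 and 25.6 to 31.7 TPM. Of these lists, 4 of 9 tested gonadal genes (Nr5a1, Nr0b1, Gata4, Lhx9), 0 of 6 endothelial genes and 1 of 2 tested muscle and cartilage genes (Col2a1) passed limma, all higher. Duct epithelium genes summed to 405 to 430 TPM among controls and 348 to 403 TPM among knockouts, and neural crest and glia genes (4 genes) to 8.43 to 9.38 and 11.1 to 26.0 TPM. Cyp17a1 was at 0 in control 3 and Myog in control 1. No gene of the whole deposited table was at 0 in all 6 libraries. In whole tissue, fewer cells of a type and less RNA per cell cannot be told apart, and the part of these markers in the results that follow was not tested.

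Differences, always knockout minus control, were tested with limma on log2(TPM + 1) over the 17577 genes that reached 1 TPM in 3 or more libraries. Of 31 members tested, none passed an adjusted p of 0.05, against 0.444% of all tested genes, and the smallest adjusted p of a member was 0.0746. An unadjusted p under 0.05 was reached by 10 members (32.3%; 11.3% of all tested genes), 3 with higher and 7 with lower values in the knockouts. Control and knockout ranges were apart for 11 members (35.5%; 16.6% of all tested genes), 4 with the knockouts above the controls and 7 below. The authors' deposited table, from DESeq2, marks 5 of the 32 members that have an adjusted p there (15.6%; 3.55% of all genes): Mmp2, Mmp9, Adamts2 and Adamts12 as lower and Adamts18 as higher. The median log2 difference of the tested members was -0.017, with 14 above 0 and 17 below, and that of all tested genes was -0.0075, with 8476 above 0 and 9101 below.

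Promoter sequence is shown for the 3 members of smallest p, Adamts12, Adamts18 and Adamts2: 250 bases up to the start of each gene, 5′ to 3′ on the gene's strand, from RefSeq on GRCm38.p6. The Adamts12 window is chr15:11064523-11064772 (plus strand), that of Adamts18 chr8:113848840-113849089 (minus strand) and that of Adamts2 chr11:50601835-50602084 (plus strand). Capitals mark GGGCGG, the GC box, on either strand.
Adamts12: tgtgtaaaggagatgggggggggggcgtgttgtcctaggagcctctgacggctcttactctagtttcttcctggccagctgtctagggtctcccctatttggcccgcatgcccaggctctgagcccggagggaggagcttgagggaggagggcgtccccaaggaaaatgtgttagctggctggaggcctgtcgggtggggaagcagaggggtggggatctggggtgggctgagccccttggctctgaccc
Adamts18: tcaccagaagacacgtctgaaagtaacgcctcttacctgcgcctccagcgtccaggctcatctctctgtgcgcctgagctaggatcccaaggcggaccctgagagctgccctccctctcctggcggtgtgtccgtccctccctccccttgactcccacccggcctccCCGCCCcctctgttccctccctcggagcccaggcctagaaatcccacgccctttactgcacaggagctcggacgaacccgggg
Adamts2: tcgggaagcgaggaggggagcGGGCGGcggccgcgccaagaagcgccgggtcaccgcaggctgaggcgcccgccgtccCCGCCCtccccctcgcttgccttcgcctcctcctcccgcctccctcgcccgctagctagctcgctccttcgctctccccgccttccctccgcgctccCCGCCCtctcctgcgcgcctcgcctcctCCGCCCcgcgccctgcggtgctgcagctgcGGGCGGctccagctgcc

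GGGCGG was found 5 times in the Adamts2 window, 1 time in that of Adamts18 and 0 times in that of Adamts12. None of these windows held CTTTGA or CTTTGT, cores of the element bound by the Tcf and Lef factors of Wnt signalling, or TGANTCA, the element bound by AP-1, or TATAAA. Of all 32851 windows of this length in the RefSeq table, 13.8% held CTTTGA, 16.5% CTTTGT, 6.75% TGANTCA, 12.4% TATAAA and 32.7% GGGCGG, both strands counted. A CTTTGA match and a TGANTCA match can share the bases TGA. RefSeq windows were matched for 19 of the 33 members, as 20 windows; GGGCGG was in 15 of them, CTTTGT in those of Adamts1 and Timp1, CTTTGA in that of Adamts13, TATAAA in that of Adamts1 and TGANTCA in none. A window without these letters says nothing of sites elsewhere.

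Both gelatinases, the enzymes that cut denatured collagen and collagen IV, had lower values in every knockout than in any control without passing limma over all genes. Mmp2, expressed mainly by mesenchyme in most organs, was the most abundant of the 33 members, at 401, 477 and 549 TPM among controls and 378, 300.4 and 370 TPM among knockouts. The groups did not overlap, although control 1 and knockout 1 were close. The means were 476 ± 73.7 and 349 ± 42.7 TPM (SD, n = 3), 26.5% lower, a log2 difference of -0.44 with SE 0.13 (adjusted p = 0.233 by limma). The mesenchymal marker Pdgfrb averaged 229 TPM among controls and 151 TPM among knockouts (adjusted p = 0.0137 by limma) and Tcf21 191 and 295 TPM (adjusted p = 0.0197 by limma). Of 11 alternatives, Pdgfrb passed in 5 (adjusted p of 0.0122 to 0.109 by limma) and Tcf21 in 4 (0.0105 to 0.114). Their part in the Mmp2 values was not tested. In the authors' deposited table the log2 value of Mmp2 is -0.43, its adjusted p 0.00158.

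Mmp9, known from invading and blood-derived cells, was scarce. It was at 5.78, 4.86 and 3.73 TPM among controls and at 1.04, 1.14 and 3.61 TPM among knockouts. Knockout 3 lay just under control 3 and at more than 3 times the level of the other knockouts. The log2 difference was -1.07 with SE 0.33 (adjusted p = 0.256 by limma) with all libraries and -1.45 without knockout 3 (limma adjusted p = 0.0361), and that p ran from 0.0361 to 0.572 over the alternatives. The authors' deposited table gives -1.32 and an adjusted p of 0.0301. Macrophage markers (6 genes) summed to 83.7 to 108 TPM among controls and 84.9 to 101 TPM among knockouts. Neutrophil and mast cell markers (4 with a row) summed to 168, 22.9 and 30.0 TPM among controls and 30.2, 15.6 and 80.6 TPM among knockouts, highest in control 1 and knockout 3. That sum followed S100a8 and S100a9, at 61.3 and 99.2 TPM in control 1. The mast cell gene Cpa3 went the other way, at 3.66, 1.60 and 4.77 TPM among controls and 11.5, 6.20 and 8.81 TPM among knockouts (adjusted p = 0.187 by limma). Mpo overlapped between the groups. The part of these markers in the Mmp9 values was not tested.

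**Figure D1:**
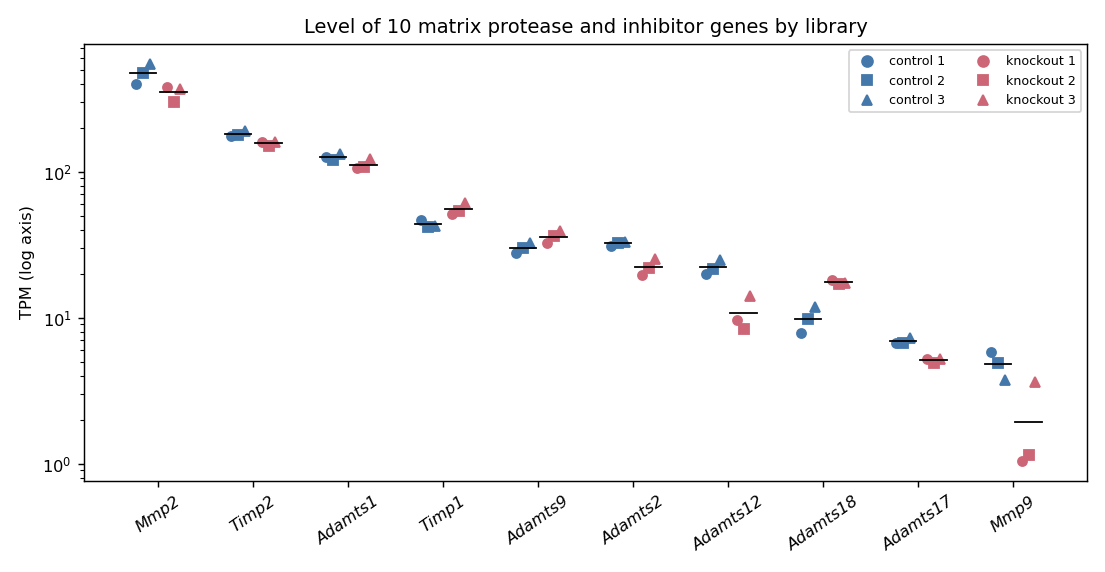
TPM on a log axis (y) of the 10 members with an unadjusted limma p under 0.05 (x), with 1 point per library (blue, 3 controls; red, 3 knockouts; shapes give the mouse number) and a line at each group mean. Adamts12 and Mmp9 have knockout 3 above the other knockouts, while Adamts18 has all knockouts between 17.1 and 18.2 TPM, above the controls.

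The membrane-type enzymes include Mmp14, which activates the Mmp2 precursor at the cell surface together with Timp2. Mmp14 was at 153, 173 and 184 TPM among controls and 178, 172 and 155 TPM among knockouts, fully overlapping, with a log2 difference of -0.012 (SE 0.085). The ratio of Mmp2 to Mmp14 was 2.62, 2.75 and 2.98 in controls and 2.12, 1.75 and 2.38 in knockouts, so these ranges did not overlap. Mmp16, a relative with a transmembrane anchor, was at 8.90, 8.87 and 10.1 TPM among controls and 7.51, 6.995 and 7.99 TPM among knockouts. Its groups did not overlap either, a log2 difference of -0.28 with SE 0.13 (adjusted p = 0.481 by limma). Mmp15 averaged 38.1 and 36.8 TPM in controls and knockouts and the lipid-anchored Mmp17 5.08 and 4.77 TPM, with overlap in both. Mmp25, also lipid-anchored, reached 1 TPM in only 2 libraries and was not tested, with a range of 0.470 to 1.49 TPM.

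Mmp11, activated by furin inside the cell and common in stroma under remodelling, was the second most abundant secreted Mmp. It was at 142, 149 and 169 TPM among controls and 143, 141 and 142 TPM among knockouts, a log2 difference of -0.10 with SE 0.075 (adjusted p = 0.680 by limma). The knockouts lay close together and control 3 alone was well above them. Mmp28, another furin-activated enzyme, averaged 4.35 TPM among controls and 5.15 TPM among knockouts, Mmp23, a cell-surface enzyme, 41.1 and 36.6 TPM, and the stromal Mmp19 0.849 and 1.16 TPM. Mmp19 was at or above 1 TPM in 4 libraries, including all knockouts, and overlapped between the groups.

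Adamts12 had the smallest p of the members, with means 51.7% lower in the knockouts, and the largest negative difference among the Adamts genes. It is grouped with Adamts7, since both cut cartilage oligomeric matrix protein. It was at 19.8, 21.7 and 24.9 TPM among controls and at 9.59, 8.34 and 14.1 TPM among knockouts. Every knockout was below every control, and knockout 3 was the highest of the knockouts. The means were 22.1 ± 2.57 and 10.7 ± 3.02 TPM (SD, n = 3), a log2 difference of -1.01 with SE 0.18 (adjusted p = 0.0746 by limma). That difference was -1.21 without knockout 3 (limma adjusted p = 0.0165), and the adjusted p ran from 0.0165 to 0.275 over the alternatives. The authors' deposited table gives -1.04 and an adjusted p of 3.77e-10.

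Adamts7 did not share this pattern of values, at 42.2, 45.3 and 57.0 TPM among controls and 49.8, 48.8 and 42.0 TPM among knockouts. Its log2 difference was -0.031 (SE 0.12), and the groups overlapped. The ratio of Adamts7 to Adamts12 was 2.13, 2.09 and 2.29 in controls and 5.19, 5.85 and 2.98 in knockouts. The knockouts had the higher ratio in each library, least so in knockout 3.

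Adamts18 was the member with the largest positive difference. Its product belongs with that of Adamts16, and mice without it have defects of the eye, lung and female reproductive tract. Adamts18 was at 7.90, 9.80 and 11.7 TPM among controls and at 18.2, 17.1 and 17.4 TPM among knockouts. The knockouts were tightly grouped above all controls, and the controls were spread more widely. The means were 9.81 ± 1.92 and 17.6 ± 0.578 TPM (SD, n = 3), 1.79-fold, a log2 difference of 0.80 with SE 0.15 (adjusted p = 0.0747 by limma). The authors' deposited table gives 0.86 and an adjusted p of 1.91e-09. The knockouts also had a higher sum of gonadal soma markers, of which 4 of 9 tested genes passed limma, all higher. One of them was Nr5a1, at 4.97 to 9.48 TPM among controls and 19.4 to 25.1 TPM among knockouts. Some other genes of that list overlapped between the groups, such as Sox9 (means of 32.2 and 31.4 TPM in controls and knockouts) and Wt1 (229 and 236 TPM). Amh, with means of 6.89 and 40.7 TPM, overlapped only through knockout 3 (log2 difference of 2.10, adjusted p = 0.244 by limma). Cyp17a1, too low for the test, had all knockouts above all controls (means of 0.039 and 1.52 TPM). Whether these markers bear on Adamts18 was not tested. Adamts16 was at 5.76, 5.21 and 4.74 TPM among controls and 6.997, 4.48 and 4.94 TPM among knockouts, overlapping, with a log2 difference of 0.037 (SE 0.19).

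**Figure D2:**
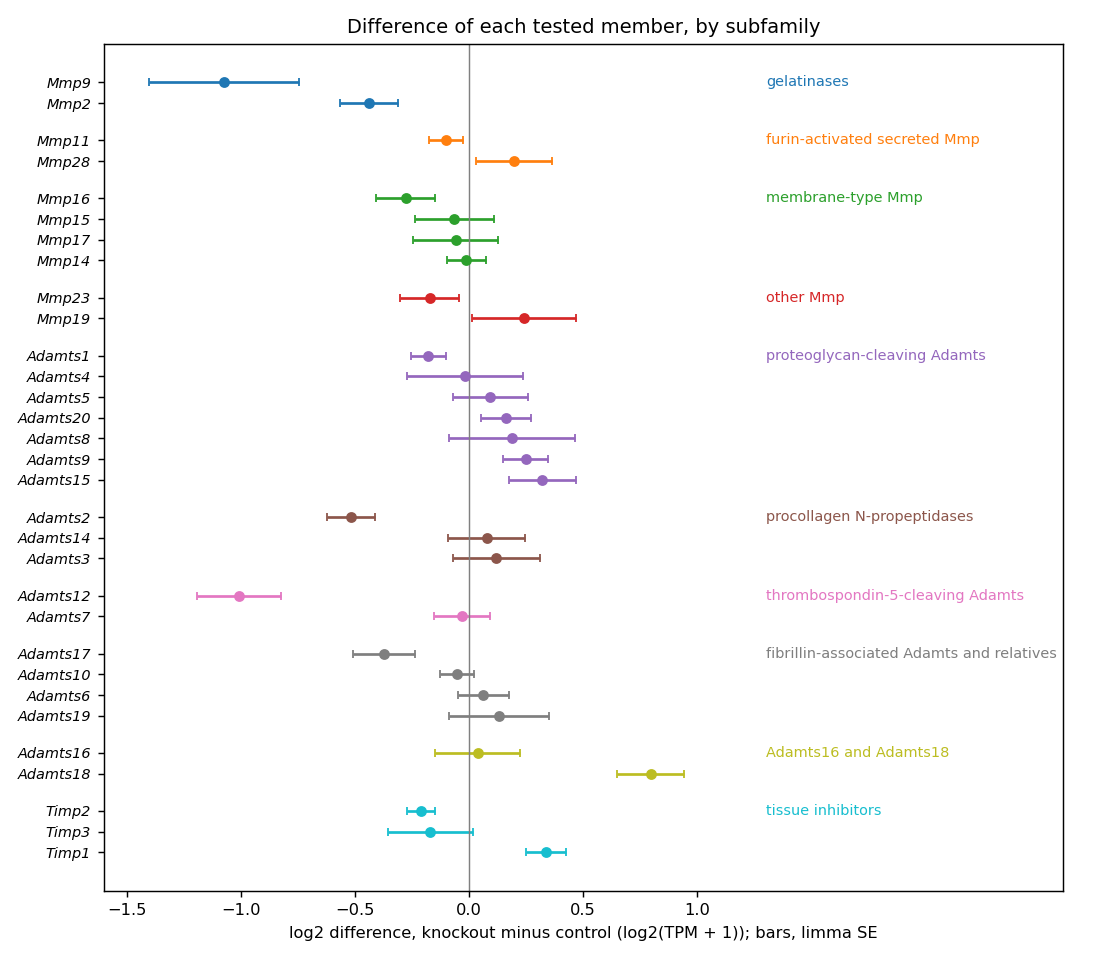
Log2 difference of knockout minus control on the log2(TPM + 1) scale (x) for the 31 tested members (y), grouped by subfamily, with bars of 1 limma standard error. Within subfamilies 1 gene stands off from its relatives in several cases, such as Adamts12 at -1.01 beside Adamts7 at -0.031 and Adamts18 at 0.80 beside Adamts16 at 0.037.

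Among the procollagen N-propeptidases, which remove the amino-terminal propeptide of fibrillar collagens, Adamts2 had lower values in all knockouts and its relatives overlapped. Adamts2 was at 30.9, 32.6 and 33.1 TPM among controls and 19.7, 22.0 and 25.3 TPM among knockouts. The controls lay within a narrow range, and every knockout was below it. The means were 32.2 ± 1.15 and 22.3 ± 2.80 TPM (SD, n = 3), 30.8% lower, a log2 difference of -0.52 with SE 0.11 (adjusted p = 0.105 by limma). Without knockout 3 the log2 difference was -0.61 (limma adjusted p = 0.0328), within a range of 0.0328 to 0.385 over the alternatives. The authors' deposited table gives -0.52 and an adjusted p of 1.26e-05.

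Adamts3 averaged 3.57 ± 0.887 TPM among controls and 3.91 ± 0.346 TPM among knockouts (SD, n = 3). Adamts14 averaged 6.70 ± 1.34 and 7.05 ± 0.685 TPM, and both genes overlapped between the groups. Adamts2 made up 76.8%, 74.1% and 76.8% of the TPM of these 3 genes in controls and 65.3%, 67.3% and 68.3% in knockouts. Of the collagens these enzymes process, Col3a1 averaged 1074 ± 59.2 TPM among controls and 857 ± 93.0 TPM among knockouts (SD, n = 3). Its log2 difference was -0.33 (limma adjusted p = 0.193), with all knockouts below all controls. For Col3a1 the authors' deposited table gives -0.32 and an adjusted p of 0.00327. Col1a1 averaged 789 and 805 TPM, and Col1a2 533 and 476 TPM, both overlapping. Col2a1, the cartilage collagen of the muscle and cartilage list, rose from 5.43 to 19.1 TPM, a log2 difference of 1.64 (adjusted p = 0.0086 by limma), with all knockouts above all controls. It passed in 9 of 11 alternatives, not with the replicate block (adjusted p = 0.0506 by limma) or without control 2 (0.0532).

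Of the 7 proteoglycan-cleaving Adamts genes 5 had a difference above 0 and 2 below, with a median of 0.16 on the log2 scale, and none passed limma. Adamts1, the most abundant Adamts gene and one that acts in ovulation and urinary tract development, was at 126, 121 and 133 TPM among controls and 106, 107 and 123 TPM among knockouts. The groups overlapped through knockout 3 and control 2, a log2 difference of -0.18 with SE 0.076 (adjusted p = 0.432 by limma). Adamts9, a versican-cleaving enzyme, was at 27.6, 30.0 and 32.6 TPM among controls and 32.6, 36.1 and 39.0 TPM among knockouts. Control 3 and knockout 1 were nearly equal, the knockout just above, and the log2 difference was 0.25 with SE 0.099 (adjusted p = 0.400 by limma). Adamts15 was at 5.54, 5.56 and 6.61 TPM among controls and 8.33, 6.78 and 7.76 TPM among knockouts, all knockouts above the controls, a log2 difference of 0.32 with SE 0.15 (adjusted p = 0.472 by limma).

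Adamts20, needed for melanoblast survival in mice, averaged 15.8 TPM among controls and 17.7 TPM among knockouts, and Adamts5 5.69 and 6.13 TPM. Adamts4 averaged 4.79 ± 2.08 and 4.51 ± 0.546 TPM (SD, n = 3), its control spread set by 7.13 TPM in control 3. Adamts8 ran from 0.620 to 1.94 TPM over the 6 libraries. All of these overlapped between the groups. RefSeq places Adamts1 next to Adamts5 and Adamts15 next to Adamts8 among protein-coding genes. In the first of these neighbour pairs the log2 differences were -0.18 and 0.093, and in the second 0.32 and 0.19.

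The substrate of several of these enzymes, the proteoglycan versican, fell at the transcript level. Vcan was at 220, 231 and 246 TPM among controls and 155, 138 and 171 TPM among knockouts. All knockouts were below all controls, and the log2 difference of -0.59 (SE 0.088) passed limma over all genes (adjusted p = 0.0354). That call was lost in 7 of 11 alternatives: with the replicate block (adjusted p = 0.0818), without the mean-variance trend, and without any 1 library other than knockout 3. The adjusted p by limma ran from 0.0193 to 0.171. For Vcan the authors' deposited table gives -0.58 and an adjusted p of 1.15e-10. In the list of 13 substrates, 9 genes were tested, of which Vcan alone passed and 8 missed the threshold, with a median log2 difference of -0.16.

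Adamts10 and Adamts6 bind fibrillin microfibrils, and Adamts17 and Adamts19 form a related pair. Adamts10 was the second most abundant Adamts gene, at 111, 124 and 119 TPM among controls and 113, 122 and 106 TPM among knockouts. Adamts6 averaged 26.2 and 27.5 TPM and Adamts19 5.49 and 6.20 TPM in controls and knockouts, all 3 genes overlapping. Adamts17, mutated in a human syndrome of short stature and lens defects, was at 6.71, 6.71 and 7.29 TPM among controls and 5.21, 4.88 and 5.23 TPM among knockouts. Its groups were narrow and apart, 26.0% lower in the knockouts, a log2 difference of -0.37 with SE 0.14 (adjusted p = 0.348 by limma). Thsd4, which encodes a fibrillin-binding relative without protease activity, was at 34.9, 41.0 and 43.3 TPM among controls and 26.3, 24.7 and 28.2 TPM among knockouts (a difference of -0.57 on the log2 scale with SE 0.10; adjusted p = 0.0735 by limma). Adamts13, which cuts von Willebrand factor, was the 1 member under 1 TPM in every library (0.0506 to 0.533 TPM) and was not tested.

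The inhibitors differed in the sign of their differences, and none passed limma. Timp2 was at 175, 178 and 189 TPM among controls and 159, 149 and 160.1 TPM among knockouts, and Timp1 at 46.5, 41.9 and 42.2 TPM among controls and 51.1, 54.1 and 60.9 TPM among knockouts. The groups did not overlap for either gene. The log2 difference of Timp2, which both inhibits Mmp2 and helps to activate it, was -0.21 with SE 0.061 (adjusted p = 0.240 by limma). For Timp1, a soluble inhibitor expressed in many tissues including the gonad, it was 0.34 with SE 0.088 (adjusted p = 0.187 by limma). The authors' deposited table has adjusted p-values of 0.0920 for Timp2 and 0.275 for Timp1. Timp1 made up 17.9%, 16.2% and 15.5% of Timp TPM in controls and 21.1%, 23.4% and 22.5% in knockouts.

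Timp3, which is held in the matrix and inhibits Adamts enzymes as well, was at 38.5, 39.1 and 41.8 TPM among controls and 31.2, 28.3 and 49.5 TPM among knockouts. Knockout 3 was above every control, and the other knockouts were below them. The log2 difference was -0.17 with SE 0.18 (adjusted p = 0.797 by limma). Reck, a membrane-anchored Mmp inhibitor outside the Timp family, averaged 72.9 ± 12.4 TPM among controls and 64.3 ± 13.6 TPM among knockouts (SD, n = 3), overlapping.

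Summed over each family, Mmp genes reached 802, 894 and 1014 TPM among controls and 808, 703 and 755 TPM among knockouts. Adamts genes summed to 449, 473 and 500.7 TPM among controls and 438, 448 and 469 TPM among knockouts, and Timp genes to 259.8, 259.0 and 273 TPM and to 242, 231 and 270.5 TPM. All 3 sums overlapped between the groups. Mmp2 made up 50.05% to 54.1% of the Mmp sum in controls and 42.7% to 49.0% in knockouts, and without Mmp2 the rest summed to 401 to 465 and 385 to 430 TPM. The ratio of Mmp to Timp transcripts was 3.42 ± 0.312 in controls and 3.06 ± 0.276 in knockouts (SD, n = 3), also overlapping. These sums follow the abundant genes and are given without a test.

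**Figure D3:**
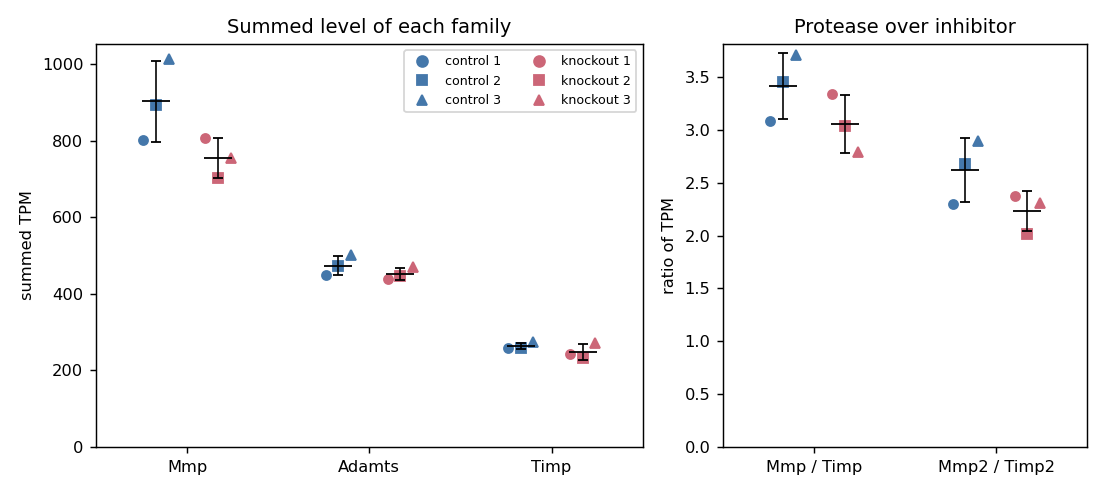
Summed TPM of each family (left) and ratios of protease to inhibitor TPM (right) by library (blue, 3 controls; red, 3 knockouts), with the mean and SD of each group in black; both y axes start at 0. The control and knockout points overlap for every sum and ratio shown.

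Other genes of the pathway were read from lists of partners, sheddases, cathepsins and substrates. Of 45 tested genes in these 4 lists, 0 were higher, 1 (Vcan) was lower and 44 did not pass limma over all genes, with 13 differences above 0, 32 below and a median of -0.094. The list of other inhibitors, activators and partners had 21 tested genes, none past the test. An unadjusted p under 0.05 was reached by 4 of the 21, all lower, against 11.3% of all tested genes in either direction. The authors' deposited table marks 3 of them, Thsd4, Sdc2 and Lrp1, as lower, against 3.55% of all genes marked in either direction. Lrp1, an endocytic receptor that clears proteases and Timp complexes, averaged 133 ± 20.8 TPM among controls and 102 ± 5.41 TPM among knockouts (SD, n = 3). The list's most abundant genes were Serpinh1, which encodes a collagen chaperone, at means of 1696 and 1762 TPM, Bsg, an inducer of Mmp expression, at 673 and 649 TPM, and Sdc2, a heparan sulfate proteoglycan, at 174 and 132 TPM. Pcolce, an enhancer of procollagen processing at the carboxyl end, averaged 133 and 119 TPM. Furin, which activates Mmp11, Mmp14 and the Adamts precursors, was at 28.0, 29.6 and 32.9 TPM among controls and 28.0, 26.2 and 25.9 TPM among knockouts, control 1 and knockout 1 being almost equal, with a log2 difference of -0.17 (SE 0.091).

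None of 10 tested astacin and Adam genes passed limma over all genes, with 1 higher and 1 lower at an unadjusted p under 0.05 (11.3% of all tested genes). Adam12, a sheddase of mesenchyme and fusing muscle cells, was at 5.31, 5.93 and 6.11 TPM among controls and 10.5, 10.5 and 7.67 TPM among knockouts. All knockouts were above the controls, knockout 3 least so, a log2 difference of 0.63 with SE 0.16 (adjusted p = 0.177 by limma); the authors' deposited table gives 0.74 and an adjusted p of 5.75e-05. Bmp1, the enzyme that removes the carboxyl propeptide of procollagens, averaged 162 and 159 TPM in controls and knockouts, Adam10 149 and 129 TPM, and Adam9 44.0 and 40.2 TPM. None of 5 cathepsins passed; the most abundant, Ctsd, Ctsb and Ctsl, averaged 146, 119 and 100.4 TPM among controls and 139, 115 and 94.2 TPM among knockouts. In this list 1 of 5 genes was at an unadjusted p under 0.05 (11.3% of all tested genes). That gene was Ctsk, which encodes a collagen-degrading cathepsin, at 47.7, 49.3 and 48.1 TPM among controls and 23.9, 25.4 and 40.3 TPM among knockouts (a difference of -0.71 on the log2 scale with SE 0.17; adjusted p = 0.166 by limma). For Ctsk the authors' deposited table gives -0.69 and an adjusted p of 0.00454. As with Mmp9 and Adamts12, knockout 3 was the knockout nearest to the controls for this gene.

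The count of members called rested on knockout 3. Without knockout 3, 3 of 30 tested members, against 1.40% of all genes tested in that fit, passed limma, namely Adamts12, Adamts2 and Mmp9, all lower. Leaving out any other library called 0 members. All 10 members with an unadjusted p under 0.05 kept their sign in each of 11 alternative fits. This was largely fixed in advance, since the block, trend and filter settings do not alter the log2 difference. A member whose groups do not overlap also cannot change sign when 1 library is left out. Knockout 3 was the knockout nearest to the controls for 6 of the 7 lower members among those 10 and for 0 of the 3 higher ones. For Adamts17 (5.23 TPM in knockout 3, 5.21 TPM in knockout 1) and Timp2 (160.1 and 159 TPM) this was nearly a tie. These members were picked by p in the same libraries, and the share over all genes was not computed, so the count is a description only.

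**Figure D4:**
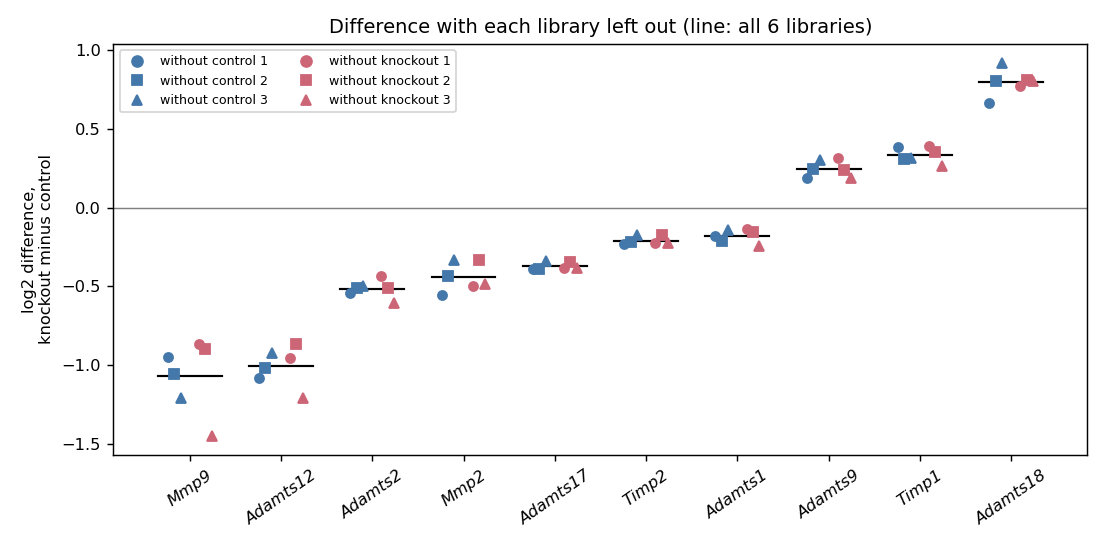
Log2 difference of knockout minus control (y) for 10 members (x) with each library left out in turn (blue, a control left out; red, a knockout left out) and with all 6 libraries (black line). No point crosses 0, which members whose groups do not overlap could not do. Leaving out knockout 3 moves Mmp9 from -1.07 to -1.45 and Adamts12 from -1.01 to -1.21.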

How the data were processed

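Poly(A) RNA of 6 male mesonephroi was sequenced in paired reads, per the labels' protocols. The authors deposited 1 TPM value per gene and library, per the file headers, and every column has the sum 1000000. Their log2 fold change of knockout over control, p-value and adjusted p-value stand in the same deposited table, per the file headers, with no adjusted value for 1175 genes. The submitters' processing notes name GRCm39 and DESeq2; aligner, counter, strand setting and gene filter: not given in the sources used here.

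Samples were grouped by title. The test, on log2(TPM + 1), was limma 3.58.1 (R 4.3.3), with a trend of variance on the mean and genotype alone in the model; 17577 genes reached the minimum of 1 TPM in 3 libraries. P-values were adjusted by Benjamini and Hochberg over these genes (threshold 0.05). Differences on this scale understate changes of low genes, and no read depth was used, so the counting error of low values is unknown here. The labels give no litter or batch. P-values weigh the genotype difference against the spread between these embryos, moderated by that of the other genes. The fit was tested on simulated data.

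The members, subfamilies and lists were chosen with earlier results of these data known. Members with an unadjusted limma p or an authors' adjusted p under 0.05 are given by library; from each list of pathway genes, those past the test or the 3 of highest level are named, and marker genes past the test. Other genes with values by library, and Thsd4, Lrp1, Pcolce, Reck, Furin, Adam12 and Ctsk, were chosen after their values were seen. Promoters, names and gene order came from RefSeq tables on GRCm38.p6, another build than the authors'. Alternatives were a pseudocount of 0.1, no filter, median-ratio scaling, no trend, a replicate block and leaving out each library.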

Additional observations from a re-analysis of the deposited data

How the results depend on the processing

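The number of genes called by limma over the whole table was 78. It was 28 without the mean-variance trend and 17 with the replicate block, and ran from 13 to 242 with 1 library left out, lowest without control 2 and highest without knockout 3. Member genes called were 0 with all libraries, 0 under the other pseudocount, filter, scaling, trend and block settings, and 0 to 3 with 1 library left out. Of 110 values of the 10 named members under 11 alternatives, 107 kept their sign and their side of the threshold. The other 3, all without knockout 3, passed it. None changed sign, but the block, trend and filter settings cannot alter the log2 difference. Leaving out 1 library cannot reverse it where the groups do not overlap, and the members were picked by p in these libraries. Of the 11 alternatives, Vcan and Tcf21 passed in 4, Pdgfrb in 5 and Col2a1 in 9. Members at an unadjusted p under 0.05 numbered 7 to 11 over the alternatives. Family sums, recomputed under scaling and with 1 library left out, kept the sign of their log2 ratio of knockout over control. That ratio ran from -0.34 to -0.17 for Mmp (-0.26 with all libraries), from -0.11 to -0.029 for Adamts (-0.070) and from -0.16 to -0.044 for Timp (-0.091), nearest 0 without control 3, control 3 and knockout 2 and farthest without control 1, control 1 and knockout 3. The labels do not say that mouse numbers pair the embryos: deviations of same-numbered control and knockout libraries correlated at -0.064, 0.050 and -0.051 across genes. With the numbers as a replicate block the adjusted p of Adamts12 was 0.0879 and that of Adamts18 0.164. Median-ratio scaling shifted the median of all genes by 0.0083 on the log2 scale. Mmp25 and Adamts13 did not reach the minimum for a test.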

Other observations

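Knockout 3 also stood apart in marker genes outside the protease families. Myod1 and Myog, transcription factor genes of skeletal muscle, were at 4.23 and 6.55 TPM in knockout 3, at 1.28 and 2.87 TPM in knockout 2 and below 1 TPM in knockout 1 and the controls. Amh, a Sertoli cell hormone gene, was at 67.8, 44.7 and 9.58 TPM among knockouts 1 to 3 and at 4.33 to 10.5 TPM in controls. Their part in the values of Mmp9, Adamts12, Adamts2 and Timp3 in knockout 3 was not tested.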
